A study of Rattus norvegicus with 32 samples.

Results

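Integrins and laminins were taken as every gene whose symbol was that of an integrin alpha chain (Itga), an integrin beta chain (Itgb) or a laminin alpha, beta or gamma chain (Lama, Lamb, Lamc). The rule used the symbols alone and no measured value. It found 36 of the 32623 genes listed for each library. These were 17 integrin alpha chains, 8 integrin beta chains, 5 laminin alpha chains, 3 laminin beta chains and 3 laminin gamma chains.

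Integrins are receptors that bind the extracellular matrix or other cells, each made of an alpha and a beta chain, and the pairing sets what is bound. Laminins are matrix proteins built from an alpha, a beta and a gamma chain, and they form the scaffold of basement membranes together with type IV collagen, nidogens and perlecan. Healthy liver sinusoidal endothelial cells (LSECs) are fenestrated and lie on a matrix without an organised basement membrane, and a continuous basement membrane is a known feature of their capillarization in chronic liver disease.

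RNA-sequencing was done on LSECs isolated from rat livers by perfusion, digestion and density centrifugation. Carbon tetrachloride (CCl4), a hepatotoxin, was inhaled by Wistar Han rats for 2 weeks (acute liver injury, 5 libraries), 6 weeks (fibrosis, 5 libraries) or 12 to 14 weeks (cirrhosis, 6 libraries), and 6 libraries came from healthy Wistar Han rats. The rats were male, the drinking water in the CCl4 model held phenobarbital, and the cells were taken some days after the last dose. A further experiment with thioacetamide (TAA), another hepatotoxin, had 5 libraries labelled control (T1 to T5) and 5 labelled TAA control (T10 and T12 to T15). The labels give Wistar Han for these 10 libraries while the description of the study gives Sprague-Dawley, and the sources do not settle which of the 2 groups received TAA. Differences there are therefore given as T10 to T15 minus T1 to T5, with no direction of disease.

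Totals per library lay between 25646531 and 46464289 expected counts, which are RSEM's estimates of the reads of each gene. Levels below are counts scaled by library size and TMM factors (CPM), which allow a gene to be compared between libraries, while levels of different genes are not compared because length is not accounted for. LSEC markers fixed for this work (12 genes, among them the scavenger receptors Stab1 and Stab2) summed to between 15113 and 26957 CPM in healthy LSECs, 2301 and 2905 in acute injury, 1708 and 2704 in fibrosis, and 13424 and 17269 in cirrhosis. None of the 12 was at 0 in any group. General endothelial markers (8 genes) summed to between 13663 and 21473 CPM in healthy LSECs, 3232 and 4396 in acute injury, 2679 and 3329 in fibrosis, and 9306 and 11564 in cirrhosis, and 6 of the 8 were lower and 1 higher in acute injury compared to healthy (median log2 fold-change -2.45). Cdh5, the cadherin of endothelial junctions and the member of that list that was not called there, spanned 775 to 1762 CPM in healthy LSECs and 1324 to 2154 in acute injury. In these bulk libraries, fewer cells of a type and less RNA per cell cannot be told apart. Healthy replicates 1, 2 and 4 stood apart from the other healthy libraries by leukocyte markers (5 genes, summed 1798, 832 and 552 CPM against 182 to 358), and calls that were lost or gained without them are given beside the gene. Hepatocyte markers (8 genes, such as albumin) ranged from 1296 to 27306 CPM among the healthy libraries and from 143 to 909 in acute injury. Libraries T14 and T15 resembled each other far more than any other pair of libraries of 1 group did, since the chi-square of their counts divided by its degrees of freedom was 2.963, while it was at least 23.62 for the others. This is above the value sampling noise alone would give, but the counts cannot tell whether the 2 libraries came from separate animals. They were kept as 2 libraries. With T14 and T15 as 1 library, 22 members were called in the TAA experiment.

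A gene was called when its adjusted p from limma-voom, Benjamini-Hochberg over all genes tested, was under 0.05 and its fold-change was above 1.5. In acute injury compared to healthy, 25 of the 31 integrin and laminin genes that could be tested were called, 7 higher and 18 lower, and the libraries of the groups did not overlap for 18. Of all genes tested in this comparison, 73.4% were called, 35.5% higher and 37.9% lower, and 60% did not overlap. In fibrosis compared to healthy, 23 of 31 were called, 10 higher and 13 lower, and 17 did not overlap, against 70.2% of all genes called, 35.3% higher and 34.9% lower, and 58.7% without overlap. In cirrhosis compared to healthy, 12 of 33 were called, 10 higher and 2 lower, and 6 did not overlap, against 51.8% of all genes called, 27.1% higher and 24.7% lower, and 27.2% without overlap. The share of members called (80.6%, 74.2% and 36.4%) thus lay near that of all genes at the first 2 stages and below it in cirrhosis. The median log2 fold-change of the members tested was -1.17, -0.70 and 0.27, beside -0.09, -0.03 and 0.07 over all genes. These 3 comparisons share the same 6 healthy libraries. Without TMM factors the median of all genes moved by 0.41, 0.40 and 0.35 on the log2 scale, and the split of called members in cirrhosis became 15 higher and 1 lower. The low-expressed Itga10 and Lama1 passed the low-count filter in no comparison.

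**Figure D1:**
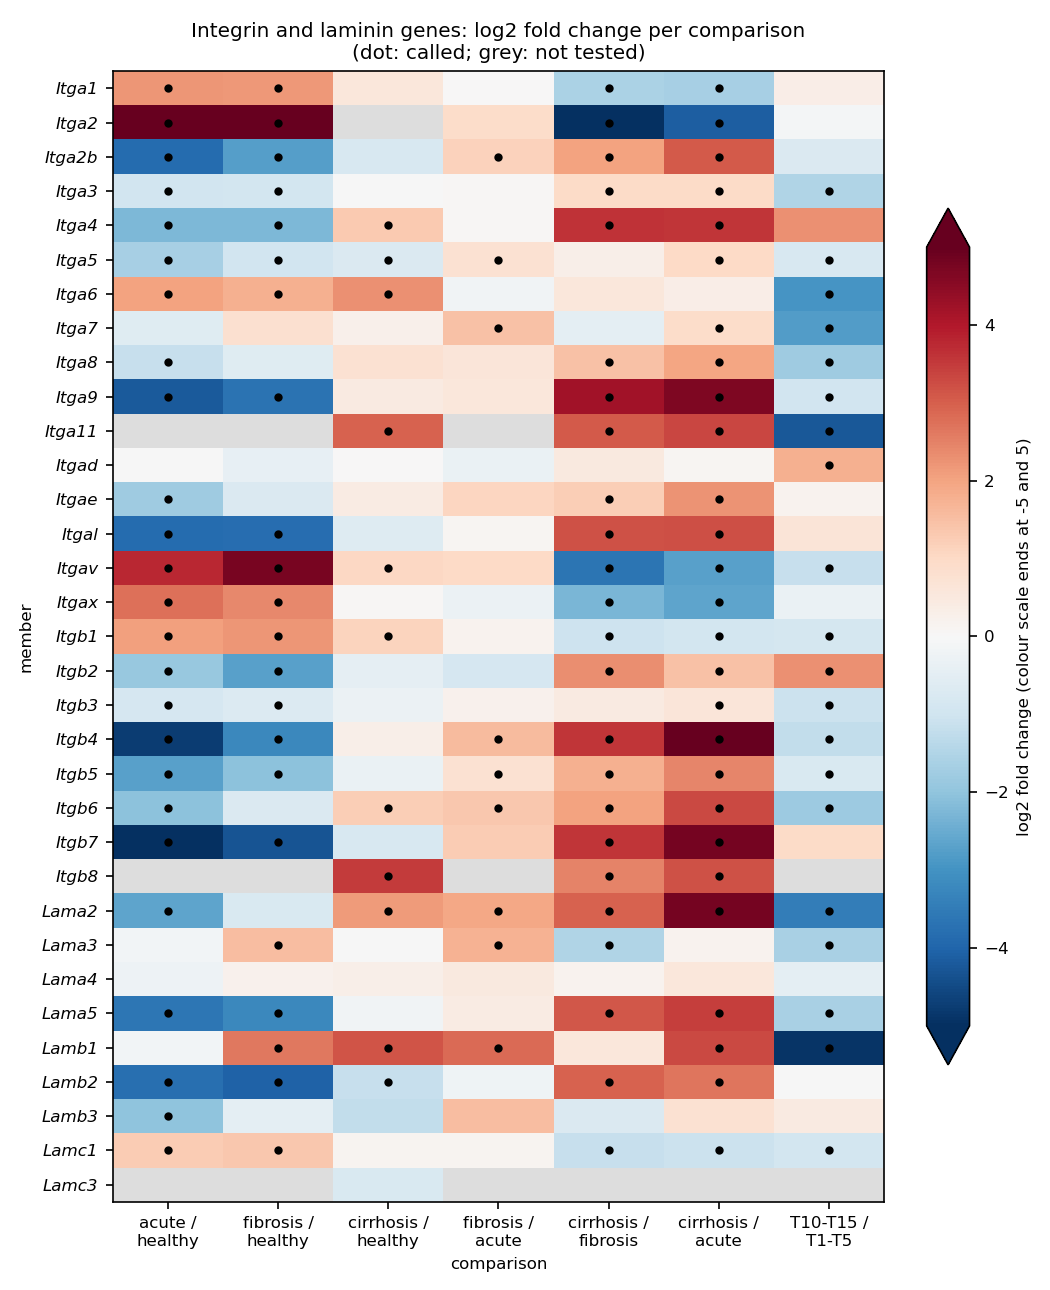
Log2 fold-change (colour) of 33 of the integrin and laminin genes (rows) in 7 comparisons (columns), with a dot where the gene was called and grey where it was not tested. Itgav, Itgb1 and Itga6 are red with a dot in all 3 comparisons with healthy, Lamb2 and Itga5 blue, and most members blue in the first 2 columns are near white in the third.

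Receptors of the RGD type, which recognise fibronectin, vitronectin or latent TGF-beta, changed in both directions. Itgav, the alpha chain shared by the vitronectin receptors, had a lowest, median and highest level of 14.7, 21.3 and 32.3 CPM in healthy LSECs. Its level was 306, 214, 324, 123 and 822 CPM in the 5 acute libraries. It was 618, 773, 564, 511 and 388 CPM in fibrosis and 25.7, 44.9 and 77.0 CPM (lowest, median, highest) in cirrhosis. Each acute and fibrosis library was above every healthy library, while cirrhosis overlapped with healthy. Its log2 fold-change compared to healthy was 3.78 ± 0.42 (SE, adjusted p = 5.2e-06) in acute injury, 4.74 ± 0.24 (adjusted p = 1.08e-08) in fibrosis and 1.05 ± 0.27 (adjusted p = 0.00579) in cirrhosis, from limma-voom. Itgb1, the beta chain used by most matrix-binding integrins, had 301, 448 and 670 CPM (lowest, median, highest) in healthy LSECs. It had 1805, 1905, 1824, 1350 and 2426 CPM in acute injury and 2072, 2408, 1906, 1838 and 1760 CPM in fibrosis. In cirrhosis its lowest, median and highest levels were 844, 947 and 1234 CPM, so that none of the 3 stages overlapped with healthy. The log2 fold-changes of Itgb1 were 2.06 ± 0.24, 2.21 ± 0.22 and 1.12 ± 0.20 (adjusted p = 8.59e-06, 2.75e-06 and 0.00073). The calls of Itgav and Itgb1 in the 3 comparisons also passed without healthy replicates 1, 2 and 4, at 0.91 for Itgav (adjusted p = 0.049) and 0.69 for Itgb1 (adjusted p = 0.00906) in cirrhosis.

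Itgb5, Itgb3 and Itgb6, further beta partners of Itgav, were lower in acute injury. Itgb5, a vitronectin-binding chain, had 20.9, 62.9 and 112 CPM (lowest, median, highest) in healthy LSECs and 8.74, 7.93, 6.86, 5.11 and 11.9 CPM in acute injury. Its level was 12.8, 12.5, 11.3, 12.3 and 12.1 CPM in fibrosis and 29.7, 40.2 and 70.1 CPM in cirrhosis. Neither early stage overlapped with healthy, and the log2 fold-changes were -2.73 ± 0.49 and -2.03 ± 0.45 (adjusted p = 0.000282 and 0.00137), against -0.32 ± 0.41 in cirrhosis (adjusted p = 0.522). Without healthy replicates 1, 2 and 4 the early differences of Itgb5 were -1.81 and -1.20 (adjusted p = 0.000957 and 0.00186). Itgb3, the other main vitronectin-binding chain, was lower by less, at -0.85 and -0.70 (adjusted p = 0.0101 and 0.00683), and the former was at adjusted p = 0.0832 without healthy replicates 1, 2 and 4. Both calls of Itgb3 were lost without TMM factors, at -0.44 and -0.30 (adjusted p = 0.089 and 0.119). Itgb6, an epithelial chain that activates latent TGF-beta, was lower in acute injury (-2.03 ± 0.42, adjusted p = 0.000717) and higher in cirrhosis (1.23 ± 0.33, adjusted p = 0.00735). Without healthy replicates 1, 2 and 4 the difference in cirrhosis was 0.75 (adjusted p = 0.156), while that in fibrosis was called lower, at -1.25 (adjusted p = 0.00899) instead of -0.73 (adjusted p = 0.0813). Itgb8, which also binds latent TGF-beta, was called only in cirrhosis among the comparisons with healthy, since the other 2 did not pass the low-count filter. It had 0 to 4 reads in the healthy libraries and 27 to 60 reads in the cirrhotic ones, or 0.576, 0.879 and 1.30 CPM (lowest, median, highest). The groups did not overlap and the log2 fold-change was 3.49 ± 0.44 (adjusted p = 0.000111). Itga5, the alpha chain of the main fibronectin receptor, was lower at each stage, at -1.66, -0.95 and -0.70 (adjusted p = 0.000235, 0.00598 and 0.0435). Its call in fibrosis was lost without TMM factors, where the fold-change fell below the threshold (-0.55, adjusted p = 0.0375). The call in cirrhosis was lost without any of 7 libraries (healthy replicates 1, 2, 3 or 4, or cirrhosis replicates 1, 2 or 3), at adjusted p between 0.0543 and 0.0889, and it was at adjusted p = 0.226 without healthy replicates 1, 2 and 4 together and at 0.20 without TMM factors. Itga8, another RGD-binding chain known from mesenchymal cells, was called only in acute injury, where it was lower (-1.17 ± 0.40, adjusted p = 0.0177), a call lost without acute replicate 1 (adjusted p = 0.054) or 2 (adjusted p = 0.0524) and without TMM factors (-0.75, adjusted p = 0.109). Library quality weights also lost the acute call of Itga8 (-0.99, adjusted p = 0.0518). In fibrosis Itga8 was called lower without healthy replicates 1, 2 and 4 (-1.07, adjusted p = 0.0053). In cirrhosis it was called higher without TMM factors (1.13, adjusted p = 0.0439).

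Of the 4 collagen-binding alpha chains, Itga1 and Itga2 rose at the early stages, while Itga10 and Itga11 did not pass the low-count filter there. Itga1, the alpha chain that prefers type IV collagen, had 76.3, 191 and 401 CPM (lowest, median, highest) in healthy LSECs. Its 5 acute libraries were at 900, 937, 897, 515 and 1219 CPM, its 5 fibrosis libraries at 804, 1001, 812, 779 and 750 CPM, and cirrhosis at 234, 275 and 341 CPM. The acute and fibrosis libraries were all above the healthy ones and the cirrhotic libraries lay within the healthy range, the log2 fold-changes being 2.22 ± 0.40, 2.19 ± 0.37 and 0.55 ± 0.34 (adjusted p = 0.000282, 0.000208 and 0.179). Without healthy replicates 1, 2 and 4 the difference of Itga1 in fibrosis was 1.42 (adjusted p = 0.00028). In cirrhosis Itga1 was called higher without TMM factors (0.89, adjusted p = 0.0445) and with library quality weights (0.96, adjusted p = 0.00236). Itga2, which prefers fibrillar collagen and lies next to Itga1 in the gene order of the rat genome, was at the edge of detection in healthy LSECs with 0 to 9 reads per library, or 0, 0.0537 and 0.301 CPM (lowest, median, highest). It had 134 to 541 reads in the acute libraries, at 3.65, 4.71, 6.55, 12.5 and 12.8 CPM. In fibrosis it had 11.3, 21.9, 13.7, 19.7 and 5.39 CPM. No injured library of either stage overlapped with healthy, and the log2 fold-changes were the highest of all members, 6.89 ± 0.74 and 7.79 ± 0.77 (adjusted p = 3.78e-06 and 2.3e-06). Their exact size rests on the few reads of the healthy libraries. In cirrhosis Itga2 had 9 to 36 reads (0.229 to 0.891 CPM) and did not pass the low-count filter in the comparison with healthy. Among the comparisons with healthy, Itga11, the fibrillar collagen receptor of fibroblasts, was tested only in cirrhosis. There it rose by 2.94 ± 0.75 on the log2 scale (adjusted p = 0.00546), or by 1.72 without healthy replicates 1, 2 and 4 (adjusted p = 0.0394). It had 0.556, 1.06 and 1.58 CPM (lowest, median, highest) in cirrhosis and 0, 0.258 and 0.465 CPM in healthy LSECs, without overlap, and at most 0.138 CPM in any acute or fibrosis library.

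**Figure D2:**
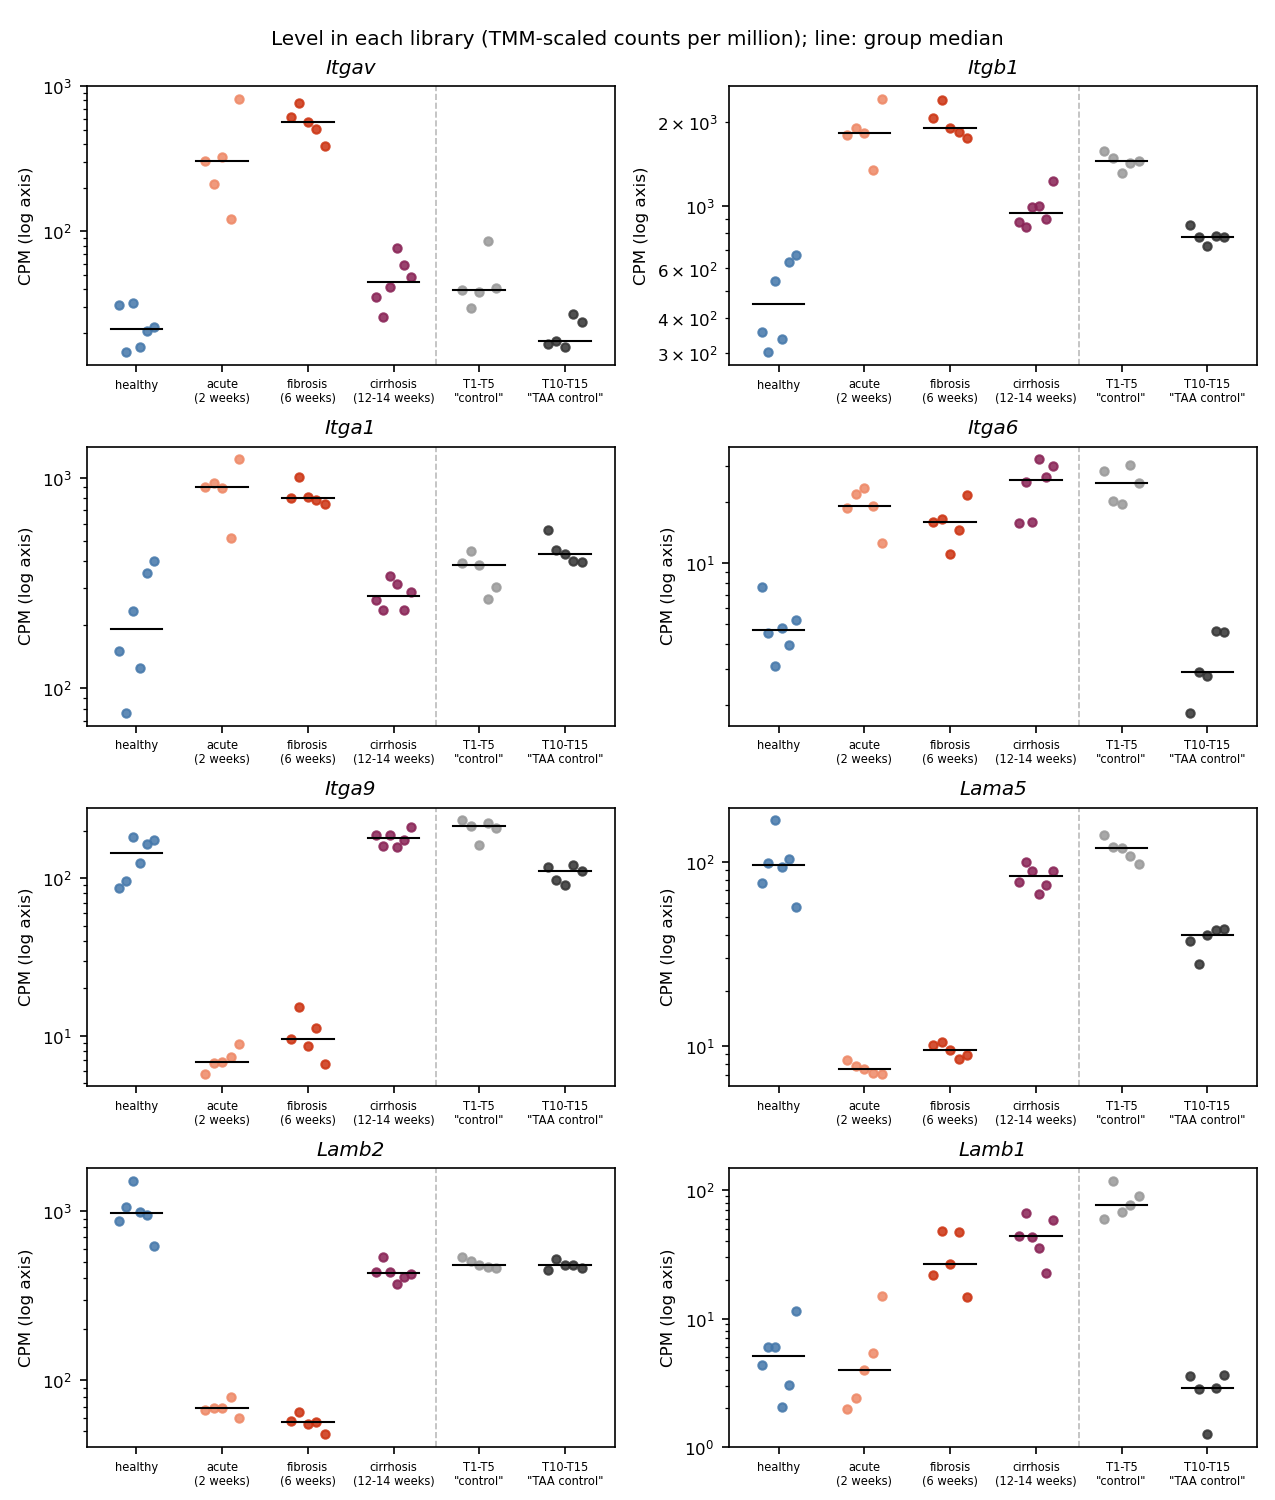
Level of 8 members in each library, in TMM-scaled CPM on a log axis, by group, with the group median as a line. In acute injury and fibrosis all libraries lie above the healthy ones for Itgav, Itgb1, Itga1 and Itga6 and below them for Itga9, Lama5 and Lamb2, while Lamb1 is higher in fibrosis and cirrhosis. The 2 T groups, right of the dashed line, were scaled apart from the CCl4 libraries.

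Among the laminin receptors, the alpha and beta chains of the hemidesmosome moved in opposite directions. Itga6, which pairs with Itgb1 or Itgb4 to bind laminin, had 3.11, 4.69 and 7.63 CPM (lowest, median, highest) in healthy LSECs. Its level was 18.6, 21.8, 23.5, 19.1 and 12.6 CPM in acute injury, 15.98, 16.6, 11.1, 14.6 and 21.7 CPM in fibrosis, and 15.7, 25.7 and 32.4 CPM in cirrhosis. All 16 injured libraries were above all 6 healthy ones. The log2 fold-changes were 2.02 ± 0.24, 1.79 ± 0.24 and 2.30 ± 0.26 (adjusted p = 1.1e-05, 3.49e-05 and 8.76e-05). Itgb4, the beta chain of hemidesmosomes, had 20.6, 41.2 and 51.4 CPM in healthy LSECs against 0.996, 1.92, 1.02, 1.42 and 1.02 CPM in acute injury. It had 2.72, 4.31, 1.76, 3.90 and 6.84 CPM in fibrosis, and 32.4, 41.4 and 60.9 CPM in cirrhosis, where it overlapped with healthy. Its log2 fold-changes were -4.76 ± 0.38, -3.22 ± 0.37 and 0.31 ± 0.27 (adjusted p = 2.86e-07, 8.8e-06 and 0.331). In cirrhosis Itgb4 was called higher without TMM factors (0.65, adjusted p = 0.0298). Itga3, a laminin-binding partner of Itgb1, was lower by 0.97 and 0.93 on the log2 scale in acute injury and fibrosis (adjusted p = 0.0171 and 0.0069), with overlapping libraries. Neither call of Itga3 passed without healthy replicates 1, 2 and 4 (adjusted p = 0.134 and 0.0564) or without TMM factors. Itga7, the laminin receptor of muscle cells, was not called against healthy at any stage, at -0.60, 0.81 and 0.27 on the log2 scale. It was called lower in acute injury with library quality weights (-1.41, adjusted p = 0.0096), with a replicate block (-1.53, adjusted p = 0.0171) or without healthy replicate 5 (-1.19, adjusted p = 0.0247), and higher in fibrosis without healthy replicates 1, 2 and 4 (1.83, adjusted p = 0.0187).

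Itga9 and the laminin chain Lama5 fell at the early stages and were not called in cirrhosis. Itga9, whose product binds tenascin, osteopontin and VCAM-1 and is known for its role in lymphatic valves, had 86.7, 144 and 183 CPM (lowest, median, highest) in healthy LSECs. It had 5.74, 6.67, 6.86, 7.35 and 8.81 CPM in acute injury and 9.52, 15.2, 8.61, 11.2 and 6.59 CPM in fibrosis. In cirrhosis it had 159, 181 and 211 CPM, with 3 of the 6 libraries above the highest healthy one. Neither early stage came near the healthy range, and the log2 fold-changes were -4.21 ± 0.25, -3.68 ± 0.26 and 0.44 ± 0.19 (adjusted p = 2.54e-08, 1.66e-07 and 0.0589). The difference in cirrhosis was called higher without TMM factors (0.78, adjusted p = 0.0036) and with library quality weights (0.59, adjusted p = 0.00283).

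The 250 bases before the gene start are shown for 4 members, the alpha and beta chains Itgav and Itgb1 that rose together at all 3 stages and Itga9 and Lama5 that fell together at the early stages, so that members moving in opposite directions can be set side by side. They come from RefSeq's table for the rat build GRCr8, which is not the build the reads were mapped to (Rnor_6.0), and they are written on the strand of the gene. Capitals mark GGGCGG, the GC box known to bind Sp1, on either strand. The windows were also searched on both strands for TGANTCA, the letters of an AP-1 type site. The last search was for TATAAA, the core of the TATA element.
Itgav, chr3:89245132-89245381, plus strand: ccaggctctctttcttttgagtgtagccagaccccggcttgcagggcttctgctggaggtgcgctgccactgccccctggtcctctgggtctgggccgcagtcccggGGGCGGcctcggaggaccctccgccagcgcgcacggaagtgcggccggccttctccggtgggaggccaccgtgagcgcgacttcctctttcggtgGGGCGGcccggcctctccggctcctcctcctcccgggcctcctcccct
Itgb1, chr19:73602027-73602276, plus strand: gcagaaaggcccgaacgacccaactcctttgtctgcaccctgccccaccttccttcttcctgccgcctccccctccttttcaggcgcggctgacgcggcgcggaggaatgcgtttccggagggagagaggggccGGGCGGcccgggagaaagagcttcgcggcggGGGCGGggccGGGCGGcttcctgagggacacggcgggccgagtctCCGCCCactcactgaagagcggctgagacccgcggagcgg
Itga9, chr8:127185039-127185288, plus strand: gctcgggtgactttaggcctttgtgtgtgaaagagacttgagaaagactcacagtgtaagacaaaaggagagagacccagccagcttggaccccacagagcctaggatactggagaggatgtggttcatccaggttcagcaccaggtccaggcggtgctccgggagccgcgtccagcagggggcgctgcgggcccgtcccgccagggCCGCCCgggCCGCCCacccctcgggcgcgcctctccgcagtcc
Lama5, chr3:187695975-187696224, minus strand: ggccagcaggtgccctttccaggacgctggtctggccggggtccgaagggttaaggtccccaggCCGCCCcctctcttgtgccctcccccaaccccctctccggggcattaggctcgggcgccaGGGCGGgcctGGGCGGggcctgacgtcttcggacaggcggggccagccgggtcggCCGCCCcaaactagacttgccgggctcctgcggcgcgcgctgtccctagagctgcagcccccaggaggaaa

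The GC box occurred 2 times in Itgav, 4 times in Itgb1, 2 times in Itga9 and 4 times in Lama5, and neither TGANTCA nor TATAAA was found in these 4 windows. Members that rose and members that fell thus both held it. The table had a promoter for 27 of the 36 members, and 13 of the 27 (48.1%) held a GC box against 30.5% of 33469 promoters of all genes. TGANTCA was found in 2 of the 27, Lama3 with 3 matches and Itgax with 1, against 6.3% of all promoters. TATAAA was found in 2, Lama4 and Itgb7, against 12.9%. The share of G and C in the window had a median of 58.4% over the members and 51.2% over all promoters, and was 72.0%, 71.2%, 65.2% and 72.8% in the 4 windows shown.

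Integrins of leukocytes and platelets were mostly lower at the early stages. Itgb2, the beta chain shared by the leukocyte integrins, had 74.5, 202 and 597 CPM (lowest, median, highest) in healthy LSECs. It had 79.7, 62.5, 54.4, 83.9 and 20.9 CPM in acute injury, 64.7, 26.9, 49.5, 26.3 and 10.1 CPM in fibrosis, and 81.6, 165 and 239 CPM in cirrhosis. Its log2 fold-change was -1.88 ± 0.52 in acute injury (adjusted p = 0.00523) and -2.72 ± 0.57 in fibrosis (adjusted p = 0.000974). Without healthy replicates 1, 2 and 4, the acute difference was -0.94 (adjusted p = 0.0766) and that in fibrosis -1.89 (adjusted p = 0.0106). Itgal, the alpha chain that pairs with Itgb2 on lymphocytes, had 68.7, 165 and 409 CPM in healthy LSECs against 7.73, 9.91, 11.1, 15.6 and 12.7 CPM in acute injury. It had 24.0, 10.1, 14.3, 12.1 and 4.43 CPM in fibrosis and 61.3, 111 and 146 CPM in cirrhosis. Both early stages lay wholly below healthy, at -3.85 ± 0.47 and -3.80 ± 0.54 (adjusted p = 1.09e-05 and 4.52e-05), and at -2.98 and -3.02 without healthy replicates 1, 2 and 4 (adjusted p = 1.04e-05 and 0.00025). Itgb7, the gut-homing beta chain of lymphocytes, had 6.38, 15.4 and 48.8 CPM in healthy LSECs and 5.79, 9.66 and 13.7 CPM in cirrhosis. It had 0.299, 0.626, 0.444, 0.115 and 0.347 CPM in acute injury and 4.76, 1.12, 0.299, 0.488 and 0.262 CPM in fibrosis, all below healthy, the log2 fold-changes being -5.55 ± 0.76 and -4.32 ± 0.81 (adjusted p = 2.88e-05 and 0.00041). In cirrhosis Itgb7 was not called, but DESeq2 (-1.04, adjusted p = 0.0292), library quality weights (-1.08, adjusted p = 0.0173) and a replicate block (-0.86, adjusted p = 0.0421) called it lower. Without healthy replicates 1, 2 and 4 its difference there was -0.0053 (adjusted p = 0.991).

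Itga4, which pairs with Itgb1 or Itgb7 and binds VCAM-1 on endothelium, was the member of this group that rose in cirrhosis. It had 6.18, 7.85 and 30.5 CPM (lowest, median, highest) in healthy LSECs, 2.07, 2.34, 2.39, 3.20 and 1.23 CPM in acute injury, 6.40, 1.97, 1.56, 2.35 and 0.933 CPM in fibrosis, and 13.4, 25.2 and 47.2 CPM in cirrhosis. The log2 fold-changes were -2.26 ± 0.48, -2.25 ± 0.56 and 1.30 ± 0.41 (adjusted p = 0.000876, 0.00294 and 0.0166). Only the acute libraries were separate from healthy. Itgax, the alpha chain of dendritic cells and macrophages, went the other way. It had 16.7, 39.7 and 140 CPM in healthy LSECs, 673, 545, 160, 145 and 134 CPM in acute injury, 286, 117, 362, 257 and 98.0 CPM in fibrosis, and 11.6, 48.8 and 80.5 CPM in cirrhosis. The groups overlapped through healthy replicate 1 alone, and the log2 fold-changes were 2.74 ± 0.57 and 2.40 ± 0.51 (adjusted p = 0.0008 and 0.00107), or 3.44 and 2.99 without healthy replicates 1, 2 and 4. RefSeq's gene table lists Itgax as an older name of Itgad, its neighbour in the genome, so which of these genes either row measures is uncertain. Itgad was not called at any stage against healthy. Itgae, a lymphocyte chain that binds E-cadherin, was lower in acute injury (-1.79 ± 0.58, adjusted p = 0.0132) but not without healthy replicates 1, 2 and 4 (-0.91, adjusted p = 0.179), in whose absence it was called higher in cirrhosis (1.23, adjusted p = 0.0167). Itga2b, the platelet alpha chain, had 11.1, 27.2 and 41.6 CPM in healthy LSECs and 1.42, 1.33, 1.67, 1.22 and 4.58 CPM in acute injury. It had 3.21, 3.81, 5.35, 4.36 and 2.33 CPM in fibrosis and 7.75, 14.6 and 33.6 CPM in cirrhosis, with the early stages below all healthy libraries at -3.86 ± 0.46 and -2.76 ± 0.38 (adjusted p = 9.65e-06 and 4.02e-05). In cirrhosis Itga2b was called lower with library quality weights (-1.08, adjusted p = 0.0343). A joint fit of the 4 CCl4 groups and a replicate block also called it lower (-0.82 and -0.80, adjusted p = 0.0313 and 0.0166).

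Markers of leukocytes were set beside these chains. The 5 general markers summed to 182 to 1798 CPM in healthy LSECs, 130 to 233 in acute injury, 68.5 to 333 in fibrosis and 296 to 754 in cirrhosis. None was at 0 in any group. In each of acute injury and fibrosis 2 of the 5 were called lower and 3 were not called (median log2 fold-change -0.14 and -0.39). In cirrhosis 2 were higher and 1 lower (median 0.86). The 12 Kupffer cell and macrophage markers summed to 409 to 4452, 88.6 to 257, 40.0 to 252 and 1015 to 3644 CPM in the same order, with 1 marker at 0 in all acute and 1 in all fibrosis libraries, and 10 and 11 of the 11 tested were lower. The 7 T cell markers summed to 38.8 to 199, 4.77 to 12.6, 3.56 to 25.8 and 90.3 to 222 CPM. The part of these cells in the results was not tested. Within a library, the log2 ratio of Itgb2 to Ptprc, the pan-leukocyte phosphatase CD45, was 2.86 ± 0.81 (SD, n = 6) in healthy LSECs, and it was lower by 1.76 in acute injury, by 2.49 in fibrosis and by 1.64 in cirrhosis (exact permutation tests, adjusted p = 0.00672 for each). Beside Itga2b, platelet markers (6 genes) summed to 2.19 to 9.27 CPM in healthy LSECs and 3.19 to 6.70 in acute injury. Of the 3 that could be tested there, Gp1ba (-2.14, adjusted p = 5.72e-05) and Gp9 (-1.23, adjusted p = 0.0412) were lower and Pf4 was higher (2.64, adjusted p = 0.000752).

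**Figure D3:**
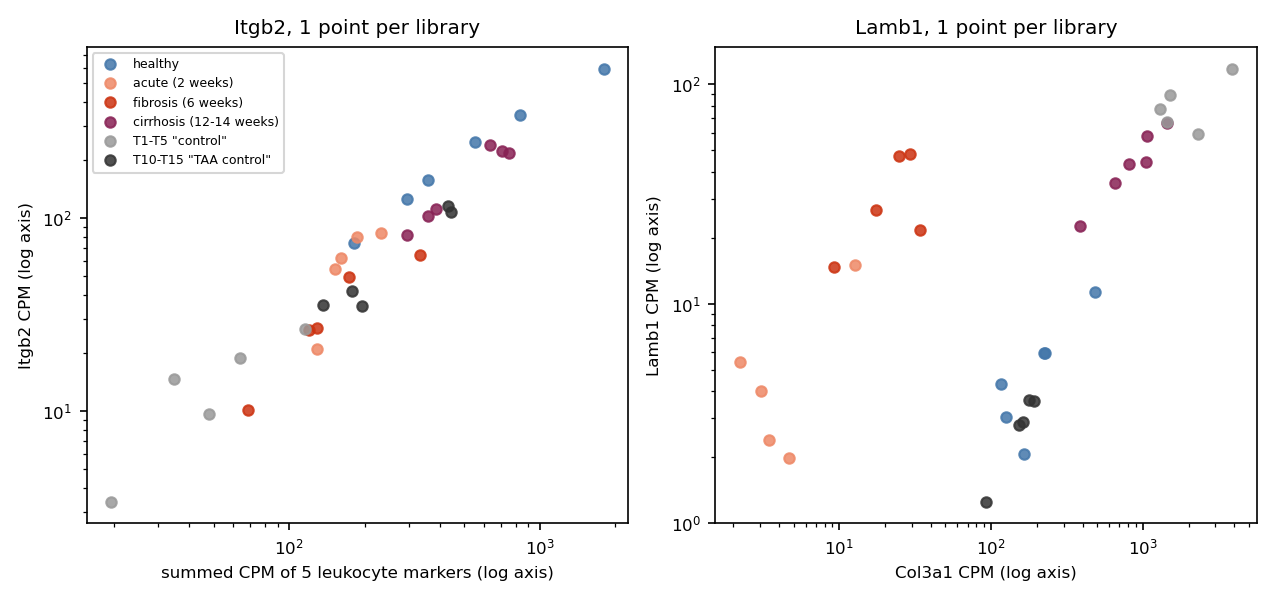
Itgb2 against the summed level of 5 leukocyte markers (left) and Lamb1 against Col3a1, a fibrillar collagen gene of stellate cells and fibroblasts (right), with 1 point per library and CPM on log axes. Itgb2 is highest in healthy replicate 1, which also has the highest marker sum of 1798 CPM. Lamb1 and Col3a1 are both high in cirrhosis and in T1 to T5, while the fibrosis libraries have high Lamb1 at Col3a1 levels below those of healthy.

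Laminin alpha chains differed from each other. Lama5, the alpha chain of laminins in the walls of mature vessels, had 56.9, 95.9 and 169 CPM (lowest, median, highest) in healthy LSECs. It had 8.38, 7.79, 7.47, 7.16 and 7.07 CPM in acute injury, 10.1, 10.5, 9.54, 8.46 and 8.98 CPM in fibrosis and 67.3, 83.5 and 100 CPM in cirrhosis. All 10 early libraries lay below every healthy one, the log2 fold-changes being -3.60 ± 0.25 and -3.24 ± 0.25 (adjusted p = 1.09e-07 and 2.68e-07), and cirrhosis differed by -0.18 ± 0.22 (adjusted p = 0.503). Lama4, the other endothelial alpha chain, was not called at any stage, with values of -0.24, 0.20 and 0.30, but was called higher without TMM factors in fibrosis (0.59, adjusted p = 0.0165) and cirrhosis (0.64, adjusted p = 0.008). Lama2, the alpha chain of muscle and mesenchymal basement membranes, had 4.52, 5.64 and 18.9 CPM in healthy LSECs. It had 1.17, 0.681, 1.06, 0.806 and 3.32 CPM in acute injury, 4.19, 6.74, 3.89, 6.05 and 1.95 CPM in fibrosis and 15.1, 36.4 and 45.6 CPM in cirrhosis. It was thus below healthy in acute injury (-2.64 ± 0.53, adjusted p = 0.000632) and higher in cirrhosis (2.12 ± 0.38, adjusted p = 0.000632), where 1 healthy library, at 18.9 CPM, overlapped. Lama3, an epithelial alpha chain, was called only in fibrosis, where it was higher (1.53 ± 0.44, adjusted p = 0.00716).

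The beta chains, which can replace each other in laminins, moved apart. Lamb2 had 624.96, 971 and 1505 CPM (lowest, median, highest) in healthy LSECs against 66.9, 69.0, 68.5, 79.3 and 60.3 CPM in acute injury. It had 57.6, 64.8, 55.0, 56.7 and 47.9 CPM in fibrosis and 369, 429 and 535 CPM in cirrhosis. No library of the 3 stages reached the healthy range, and the log2 fold-changes were -3.78 ± 0.19, -4.04 ± 0.19 and -1.16 ± 0.19 (adjusted p = 6.89e-09, 6.83e-09 and 0.000426). Lamb1 had 2.06, 5.15 and 11.4 CPM in healthy LSECs and 1.99, 2.40, 3.999, 5.43 and 15.03 CPM in acute injury, with no call (-0.14 ± 0.54, adjusted p = 0.821). It had 21.8, 48.2, 26.7, 47.2 and 14.7 CPM in fibrosis and 22.6, 43.8 and 66.9 CPM in cirrhosis. Both later stages were wholly above healthy, at 2.63 ± 0.45 and 3.14 ± 0.38 (adjusted p = 0.000196 and 9.62e-05). Lamb3, an epithelial beta chain of low level, was called lower in acute injury (-2.0 ± 0.76, adjusted p = 0.0291). That call was lost without acute replicate 1, 2 or 8 (adjusted p = 0.0647, 0.0815 and 0.0623) or without healthy replicates 1, 2 and 4 (-1.04, adjusted p = 0.157), and without TMM factors (-1.62, adjusted p = 0.0617). In cirrhosis Lamb3 was called lower by edgeR's quasi-likelihood test (-1.81, adjusted p = 0.0273) and DESeq2 (-1.80, adjusted p = 0.00662). Library quality weights and a replicate block also gave this call (-1.49 for both, adjusted p = 0.019 and 0.0292).

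Of the gamma chains, Lamc1, which is part of most laminins, rose by 1.25 ± 0.19 and 1.34 ± 0.17 on the log2 scale in acute injury and fibrosis (adjusted p = 5.76e-05 and 2.17e-05) without overlap, and stood at 0.13 ± 0.20 in cirrhosis (adjusted p = 0.593). Lamc3 had 2 to 36.9 expected counts in the healthy libraries and 0 in all 10 acute and fibrosis libraries. A count of 0 allows up to 3 counts, or 0.0691 to 0.0997 CPM in these libraries, by counting error alone.

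Stellate cell and fibroblast markers moved with Lamb1, Lama2 and Itga11 in cirrhosis. The 11 markers summed to 285 to 795 CPM in healthy LSECs and 637 to 1972 in cirrhosis, and 9 of the 11 were higher, Col3a1 among them (117 to 484 against 385 to 1434 CPM). In acute injury the sum was 1316 to 2133 CPM, of which Reln alone, an extracellular glycoprotein, made 1305 to 2123, while 6 of the 10 markers tested were lower. In fibrosis the sum was 1303 to 1750 CPM, of which Reln made 1174 to 1570, with 3 markers higher and 3 lower, and Col3a1 was at 9.19 to 33.9 CPM, below all healthy libraries. No marker of the list was at 0 in any of these groups. The part of such cells in the levels of Lamb1, Lama2 and Itga11 was not tested.

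Ratios of genes within a library do not depend on how libraries are scaled. For 9 pairs of genes set beside each other, the log2 ratio was compared in 5 comparisons by exact two-sided permutation tests, with Benjamini-Hochberg adjustment over these 45 tests. The smallest p these designs allow is 0.00216 in the CCl4 comparisons of 5 or 6 libraries against 6 or 5 and 0.00794 in the TAA experiment. All 9 ratios differed from healthy in acute injury and in fibrosis, 6 of 9 in cirrhosis. How often ratios of other gene pairs would differ was not tested, so these counts have no reference. Of all genes, 73.4%, 70.2% and 51.8% were called in the same 3 comparisons by limma-voom. The ratio of Lamb2 to Lamb1 was 7.67 ± 1.06 (SD, n = 6) in healthy LSECs, 3.97 ± 1.21 (n = 5) in acute injury, 0.968 ± 0.616 (n = 5) in fibrosis and 3.34 ± 0.457 (n = 6) in cirrhosis. No injured library reached the lowest healthy ratio of 5.78 (exact permutation tests, adjusted p = 0.00672, 0.00443 and 0.00443). Lama5 to Lama4 fell by 3.37 and 3.44 in acute injury and fibrosis (exact permutation tests, adjusted p = 0.00443 for both), while cirrhosis differed by -0.484 (exact permutation test, adjusted p = 0.0832). Lama2 to Lamc1 was lower by 3.83 and 2.07 at the early stages and higher by 2.02 in cirrhosis (exact permutation tests, adjusted p = 0.00443 for each). Itga6 to Itga5, a laminin-binding against a fibronectin-binding chain, was higher than in healthy by 3.68, 2.74 and 3.01 (exact permutation tests, adjusted p = 0.00443 for each). Itgb1 to the endothelial Cdh5 was higher by 1.67, 2.39 and 0.82 with the same adjusted p from exact permutation tests, and Cdh5 was set in place of Pecam1, which was not analysed here, after the data were seen. Itgb3 to Itgb5, which share Itgav as partner, rose by 1.86 and 1.33 at the early stages (exact permutation tests, adjusted p = 0.0189 and 0.0461), and the latter was lost without any of 9 libraries, at adjusted p between 0.0508 and 0.101. Itga1 to Itga2 was lower by 4.68, 5.61 and 2.21 (exact permutation tests, adjusted p = 0.00672, 0.00672 and 0.0395), and the difference in cirrhosis was lost without any of 10 libraries, at adjusted p between 0.0564 and 0.0799, and with 2 counts added in place of 0.5 (-1.27, adjusted p = 0.102). Itgb2 to Itgb1 was lower by 3.94 and 4.93 at the early stages (exact permutation tests, adjusted p = 0.00672 and 0.00443).

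**Figure D4:**
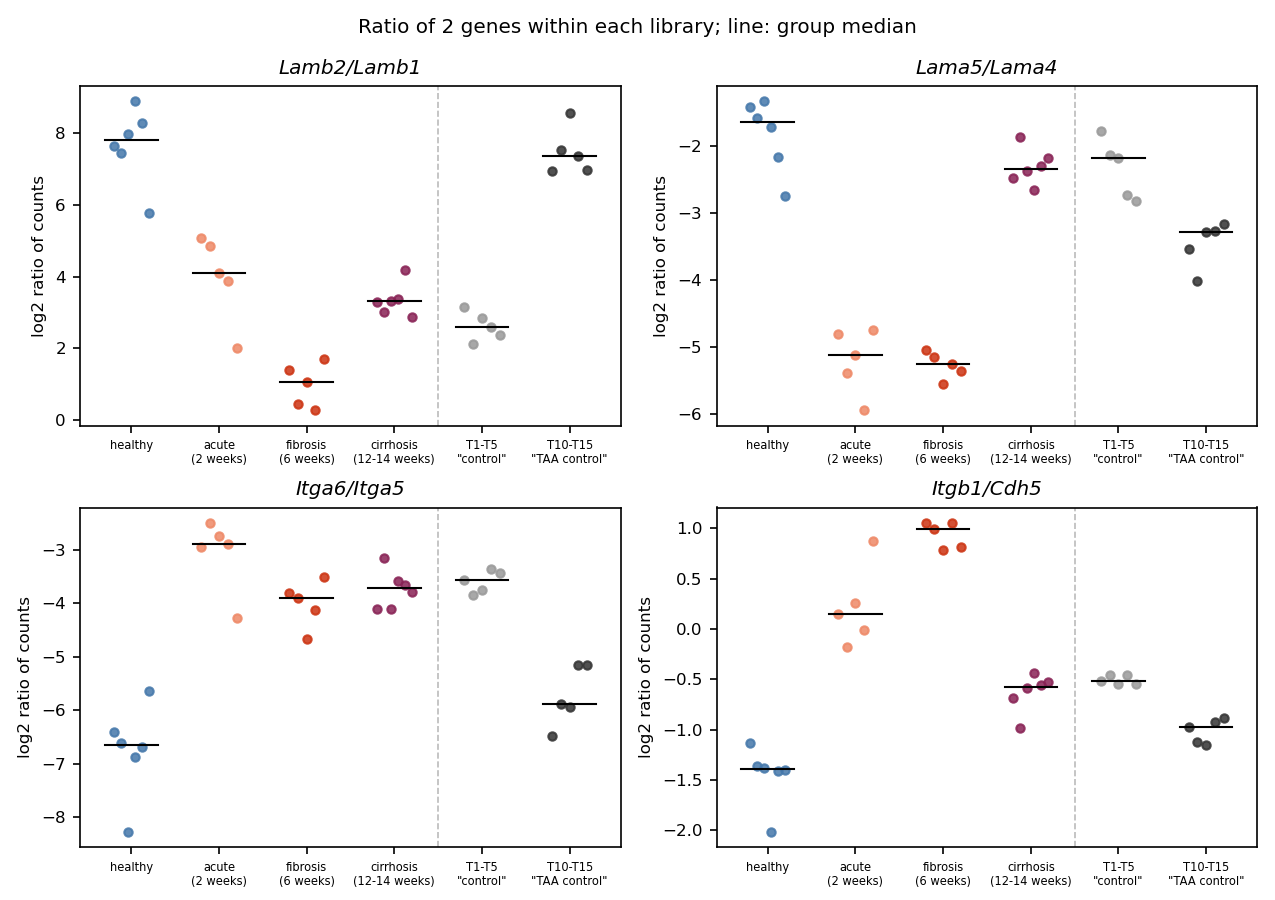
Log2 ratio of the counts of 2 genes within each library by group, with the group median as a line, for Lamb2/Lamb1, Lama5/Lama4, Itga6/Itga5 and Itgb1/Cdh5. Lamb2/Lamb1 is at 5.78 or higher in all healthy libraries and at 1.70 or lower in all fibrosis libraries, and Lama5/Lama4 is at -4.7 or lower in acute injury and fibrosis and at -2.8 or higher in the healthy and cirrhotic libraries.

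Between stages, 10 of 31 members were higher in fibrosis than in acute injury and 0 were lower by limma-voom, with 4 of 31 not overlapping, while 11% of all genes were called, 10.2% higher and 0.732% lower, and 17.2% did not overlap. The largest of these differences was that of Lamb1 (2.82 ± 0.56, adjusted p = 0.00902), and Lama2 was also higher (1.93 ± 0.46, adjusted p = 0.0168). Others called were Itga2b, Itga5, Itga7, Itgb4, Itgb5, Itgb6 and Lama3, at 0.75 to 1.73. The calls of Itga2b and Lama3 were each lost without any of 8 of the 10 libraries, at adjusted p between 0.0669 and 0.102 for Itga2b and between 0.0558 and 0.109 for Lama3. At an unadjusted p under 0.05 and the same fold-change 13 members were called, with edgeR's quasi-likelihood test 8 and with DESeq2 12. A joint limma-voom fit of the 4 CCl4 groups called 3, and the calls of Lama2 (1.85, adjusted p = 0.0664), Itga2b, Itga5, Itga7, Itgb4, Itgb5 and Itgb6 were lost in it, at adjusted p between 0.0611 and 0.40.

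Cirrhosis compared to fibrosis had 17 of 33 members higher and 8 lower, and 22 did not overlap, where 63.8% of all genes were called, 34.3% higher and 29.5% lower, and 63.3% did not overlap. Itga9 (4.18 ± 0.17, adjusted p = 8.55e-10), Lama5 (3.12 ± 0.13, adjusted p = 8.67e-10) and Lamb2 (2.94 ± 0.10, adjusted p = 3.06e-10) were among those higher. Itga2 (-4.96 ± 0.64, adjusted p = 1.73e-05), Itgav (-3.63 ± 0.27, adjusted p = 1.26e-07) and Itga1 (-1.58 ± 0.12, adjusted p = 1.25e-07) were among those lower. Lamb1 did not differ between these stages by the test (0.57 ± 0.34, adjusted p = 0.144). Compared to acute injury, cirrhosis had 22 of 33 members higher and 6 lower, and 21 did not overlap, where 69.3% of all genes were called, 37.5% higher and 31.8% lower, and 65.9% did not overlap. Itgb4 (5.10 ± 0.37, adjusted p = 7.7e-08), Itgb7 (4.80 ± 0.53, adjusted p = 3.08e-06) and Lama2 (4.79 ± 0.55, adjusted p = 4.28e-06) had the largest rises of that comparison. These comparisons use the same acute, fibrosis and cirrhosis libraries as those with healthy, so they are not separate evidence of the early changes.

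In the TAA experiment, 21 of 32 members differed between the 2 labelled groups, 2 higher and 19 lower in T10 to T15 than in T1 to T5, and the groups did not overlap for 20. Of all genes, 27.6% were called, 12.7% higher and 14.9% lower, and 35.4% did not overlap. The median log2 fold-change was -0.91 over the members and 0.03 over all genes. Lamb1 had 59.5, 118, 67.4, 77.0 and 89.3 CPM in T1 to T5 and 3.60, 2.80, 1.25, 2.88 and 3.63 CPM in T10 to T15, a log2 fold-change of -4.92 ± 0.34 (adjusted p = 6.51e-06). Lama2 had 44.1, 60.9, 29.6, 25.7 and 31.5 CPM against 4.55, 2.34, 2.07, 4.26 and 4.62 CPM (-3.45 ± 0.37, adjusted p = 6.07e-05). For neither gene did a library of T10 to T15 reach those of T1 to T5. Itga6 had 28.5, 20.3, 19.6, 30.4 and 24.8 CPM against 1.83, 2.90, 2.80, 4.62 and 4.58 CPM (-2.96 ± 0.25, adjusted p = 1.83e-05). Lama5 had 140, 121, 120, 108 and 97.6 CPM against 37.2, 28.0, 40.3, 42.6 and 43.2 CPM (-1.63 ± 0.13, adjusted p = 1.44e-05). Both were without overlap, as was Itgb1 at -0.89 ± 0.07 (adjusted p = 1.66e-05). Lamb2 was at 459 to 532 CPM in T1 to T5 and 447 to 520 CPM in T10 to T15, at -0.04 ± 0.07 (adjusted p = 0.691). The ratio of Lamb2 to Lamb1 was 2.61 ± 0.407 (SD, n = 5) in T1 to T5 and 7.48 ± 0.655 (n = 5) in T10 to T15 (exact permutation test, adjusted p = 0.0102).

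The members called higher in T10 to T15 by limma-voom were Itgb2 (2.29 ± 0.55, adjusted p = 0.00556) and Itgad (1.78 ± 0.43, adjusted p = 0.00569). Itga4 and Itgb7 were not called by it, at 2.28 and 0.95 (adjusted p = 0.0589 and 0.0658). Both were called higher by edgeR's quasi-likelihood test (2.41 and 1.13, adjusted p = 0.0159 and 0.026). DESeq2 also called them higher (2.40 and 1.12, adjusted p = 0.00487 and 0.00759). Itgb2 had 14.7, 18.7, 26.5, 3.38 and 9.63 CPM in T1 to T5 and 35.4, 41.9, 35.0, 116 and 108 CPM in T10 to T15. The highest 2 values were those of the near-identical T14 and T15. All 5 leukocyte markers were also higher there, with sums of 19.5 to 116 CPM in T1 to T5 and 136 to 441 in T10 to T15, and the ratio of Itgb2 to Ptprc differed by -0.481 (exact permutation test, adjusted p = 0.0633). Of the 11 stellate cell and fibroblast markers 9 were lower in T10 to T15, with sums of 2126 to 5299 CPM in T1 to T5 and 346 to 540 in T10 to T15, and none was at 0 in either group. The part of such cells in these differences was not tested.

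Ligands and partners of the members were described by lists of genes. Of all genes tested, 73.4% were called in acute injury, 70.2% in fibrosis and 51.8% in cirrhosis, each compared to healthy. The share called of each list is given below to be read beside these. Of the matrix ligands of integrins, 4 of the 21 tested were higher and 16 lower in acute injury, 6 of 22 higher and 12 lower in fibrosis, and 12 of 24 higher and 5 lower in cirrhosis, each compared to healthy. The shares called were 95.2%, 81.8% and 70.8%, and the median log2 fold-changes were -3.90, -1.77 and 0.74. Spp1 (osteopontin, a ligand of Itgav and Itga9) rose by 7.67, 4.43 and 3.89 on the log2 scale (adjusted p = 5.26e-08, 0.035 and 0.0064), and Postn (periostin, a matrix protein of fibrotic tissue) by 4.25 in fibrosis and 4.57 in cirrhosis (adjusted p = 5.39e-05 and 0.000658). Vwf, the von Willebrand factor, fell at the early stages, at -7.74 and -6.43 on the log2 scale (adjusted p = 8.32e-09 and 2.67e-08).

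Basement membrane partners of laminins showed a comparable divide. In acute injury 9 of 11 were lower and 2 higher, in fibrosis 8 of 11 lower and 2 higher, and in cirrhosis 3 of 12 lower and 4 higher, with medians of -3.55, -2.39 and 0.40. The shares called were 100%, 90.9% and 58.3%. The 2 higher at the early stages were the nidogens, which link laminins to type IV collagen, Nid2 (2.76 and 3.0) and Nid1 (2.13 and 1.47; adjusted p = 7.62e-06, 1.5e-05, 0.000181 and 0.00308). Agrn, the heparan sulphate proteoglycan agrin, was lower in fibrosis (-3.56) and in cirrhosis (-1.30) (adjusted p = 5.14e-09 and 0.000153). Col15a1, a collagen of the basement membrane zone, had the largest rise in cirrhosis (3.72, adjusted p = 0.000406).

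Counter-receptors on cell surfaces had 8 of 9 lower and 1 higher in acute injury, 5 lower and 1 higher in fibrosis, and 2 lower and 2 higher in cirrhosis. The shares called of these 9 genes were 100%, 66.7% and 44.4%, the last 2 near those of all genes (70.2% and 51.8%). Icam1, the endothelial ligand of Itgal with Itgb2, was lower at each stage, at -4.83, -4.54 and -1.20 on the log2 scale (adjusted p = 4.67e-08, 2.73e-08 and 0.00233). Among other laminin receptors and integrin partners, 6 of 11 were lower and 1 higher at each early stage, and 7 of 11 lower and 0 higher in cirrhosis. The share called was 63.6% of these 11 genes at each stage, beside 73.4%, 70.2% and 51.8% of all genes. Bcam, the Lutheran receptor for Lama5, fell at each stage, at -6.15, -5.97 and -1.73 (adjusted p = 2.05e-08, 2.28e-08 and 0.000558), and the tetraspanin Cd151, a partner of laminin-binding integrins, at -4.70, -6.13 and -1.68 (adjusted p = 7.01e-07, 0.000635 and 0.000428).

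Inside the cell, integrin activators, adaptors and inhibitors were called in both directions, 6 of 16 higher and 7 lower in acute injury, 7 and 6 in fibrosis, and 7 and 6 in cirrhosis. The share called was 81.2% at each stage. Krit1, which releases the inhibitor Itgb1bp1 from integrins, was higher by 3.22, 3.08 and 1.70 (adjusted p = 1.58e-05, 2.59e-05 and 0.00362). Itgb1bp1 itself was higher by 2.34 and 1.94 at the early stages (adjusted p = 5.34e-07 and 2.99e-06). Rasgrp2, an activator of Rap1 known from platelets, was lower at -5.84, -5.18 and -1.17 (adjusted p = 2.3e-08, 3.36e-08 and 0.000503). Of 21 focal adhesion proteins 4 were higher and 10 lower in acute injury, 4 higher and 12 lower in fibrosis, and 4 higher and 7 lower in cirrhosis. The shares called, 66.7%, 76.2% and 52.4%, were near those of all genes. The closely related adaptors Lims1 and Lims2 went opposite ways at the early stages, at 3.43 and 3.47 for Lims1 (adjusted p = 4.38e-06 and 3.58e-06) and -6.16 and -4.50 for Lims2 (adjusted p = 5.76e-07 and 3.7e-06).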

How the data were processed

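RNA of LSECs from 32 rat isolations was sequenced. The authors trimmed reads with Trim Galore, aligned them with STAR (build Rnor_6.0) and estimated gene counts by RSEM, per the labels and the methods. The deposited values are expected counts per gene and library, which may hold fractions of a read and are neither normalized nor pooled. RSEM divides reads that fit several genes, so near-identical genes are less certain. Totals per library ranged from 25646531 to 46464289, and intervals given by a count of 0 cover counting error only.

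Expected counts were rounded and tested with limma-voom (limma 3.58.1, edgeR 4.0.16, R 4.3.3), TMM factors and filterByExpr, in a fit across all genes of the 2 groups compared, without covariates. Calls needed a Benjamini-Hochberg adjusted p under 0.05 and a fold-change above 1.5, where the study's methods use an unadjusted p. CPM used TMM factors over the 22 CCl4 and, apart, the 10 other libraries. Pair ratios are log2 of expected counts plus 0.5, with exact permutation tests in Python 3.11.15 (SciPy 1.17.1). Alternatives were edgeR's quasi-likelihood test, DESeq2 1.42.0, other factors, filters and thresholds, library weights, a joint fit, a replicate block and leaving out libraries. The limma-voom fit was also run on simulated counts for cirrhosis and healthy in which few genes changed. That simulation does not cover the large share of genes called in these data, nor the other tests. P-values measure the spread between these libraries.

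Groups and replicate numbers come from the sample labels, with titles used for T12 to T15, whose descriptions carry other numbers. The 20 members with values per library were those called against healthy with an absolute log2 fold-change of at least 2, or called at all 3 stages, taken by size from 23 that met this rule, of which 1 is not reported here. Genes of the pairs are named too, and of the gene lists at most 3 rises and 3 falls per comparison. Members and lists were chosen with earlier results of these data known. Of 196 list genes 190 were matched by symbol or older name in RefSeq's table. Proteins, and the pairs that need Itgam or Pecam1, were not analysed here.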

Additional observations from a re-analysis of the deposited data

Results flagged for a closer look

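In 7 of 114 groups of libraries, 1 library lay far from the others for a member, and a test of this kind marks about 1 group in 20 by chance, or 5.7 of 114. In fibrosis replicate 13, Itga1 was at 1001 CPM against a group median of 804. In acute replicate 8, Itga2b was at 4.58 CPM against a median of 1.42 and Itgb8 at 0.379 CPM against 0.0691. In healthy LSECs, Itga2 was at 0.301 CPM in replicate 1 against a median of 0.0537, and Itga2b at 11.1 CPM in replicate 5 against a median of 27.2. In T2, Itga11 was at 2.56 CPM against a median of 0.805, and in T13 Lamb1 was at 1.25 CPM against 2.88.

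Itga4 and Lama2 were called in opposite directions at different stages compared to healthy, and the stages themselves differed by limma-voom. Itga4 was higher in cirrhosis than in acute injury by 3.59 on the log2 scale and higher than in fibrosis by 3.61. Lama2 was higher in cirrhosis than in acute injury by 4.79.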

How the results depend on the processing

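No alternative reversed a called direction. With library quality weights, 20 members were called in cirrhosis compared to healthy and 16 in fibrosis compared to acute injury, against 12 and 10, and 1 fit over the 4 CCl4 groups called 3 in the latter, and the cause was not tested. The members gained with these weights in cirrhosis were Itga1 and Itga9, higher, and Itga2b, Itgal, Itgb5, Itgb7, Lamb3 and Lamc3, lower. Leaving out 1 library at a time gave 24 to 26 called members in acute injury, 23 to 24 in fibrosis and 11 to 16 in cirrhosis compared to healthy. It gave 8 to 12 in fibrosis compared to acute injury, 25 to 27 in cirrhosis compared to fibrosis, 27 to 29 in cirrhosis compared to acute injury and 21 to 23 in the TAA experiment. Of the 9 ratios, 9 to 9, 8 to 9 and 5 to 7 then differed from healthy in acute injury, fibrosis and cirrhosis, 8 to 8 between cirrhosis and fibrosis and 6 to 7 in the TAA experiment. Replicate numbers gave no clear pairing of cirrhosis and healthy. Correlations of same-numbered deviations lay between -0.182 and 0.246, and 1 of 6 numbers correlated best with itself. For cirrhosis and acute injury they were -0.0794 to 0.0647, with 0 of 4 numbers correlating best with themselves. For acute injury and healthy the correlations were weak but all positive, 0.0344 to 0.146, with 3 of 4 numbers correlating best with themselves. Whether the numbers pair these libraries was not tested. With a replicate block 26 members were called in acute injury and 14 in cirrhosis compared to healthy, and 27 in cirrhosis compared to acute injury. With pairing by number, 0 ratios passed in acute injury and 0 in cirrhosis, where the smallest p possible was 0.125 and 0.0312 and no adjusted value could pass. Without healthy replicates 1, 2 and 4, a choice made after seeing the data, 20, 25 and 12 members were called in acute injury, fibrosis and cirrhosis. With T14 and T15 as 1 library, 22 members were called.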

Other observations

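As a share of all expected counts, the 25 integrins made 0.155 to 0.233% in healthy LSECs, 0.297 to 0.499% in acute injury, 0.388 to 0.525% in fibrosis and 0.224 to 0.289% in cirrhosis. The 11 laminins made 0.107 to 0.170%, 0.0840 to 0.143%, 0.107 to 0.124% and 0.112 to 0.154%. The share of the integrins was above every healthy library in each acute and fibrosis library, while the shares of the laminins overlapped with healthy at each stage. Such a sum follows the genes with most reads, such as Itgb1, and does not describe most integrins. Of the 22 integrins tested in acute injury, 14 were lower and 6 higher (median log2 fold-change -1.41), and in fibrosis 11 were lower and 6 higher.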
